A study of Mus musculus with 12 samples.

Results

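The transcriptional response of the mouse colon to dextran sulfate sodium (DSS) was measured by setting all 6 DSS libraries against all 6 water (H2O) libraries, with genotype as a covariate, so that all 12 libraries of the series entered the comparison. DSS is a sulfated polymer that damages the colon lining when given to mice and is used to induce colitis. The DSS arm held 3 libraries from Glul∆Lyz2 mice (KO_DSS 1, 2 and 3) and 3 from Glul f/f littermates (WT_DSS 1, 2 and 4). The H2O arm held 3 libraries from Glul∆Lyz2 mice (KO_H2O 1, 2 and 3) and 3 from Glul f/f littermates (WT_H2O 1, 2 and 3). WT therefore stands here for mice that carry the floxed Glul allele without the deletion. In Glul∆Lyz2 mice Glul, which encodes glutamine synthetase, is deleted where the myeloid gene Lyz2 drives the Cre recombinase, while the RNA came from whole colon, in which myeloid cells are a minority. The sources used here give no DSS dose, days of treatment, age or sex. The labels do not say that each library is 1 animal, so the spread behind each p-value is that between libraries and may hold technical variation.

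DSS strips and injures the epithelium, the single cell layer of stem, absorptive, mucus-secreting and hormone-secreting cells that lines the colon. Bacteria then reach the tissue below, and epithelial cells and resident macrophages release chemokines and cytokines that draw neutrophils and monocytes from the blood. Interferons made in the inflamed tissue act through Stat and Irf transcription factors on a large set of antimicrobial and antigen presentation genes, and crypts rebuild the lining from surviving cells.

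The deposited values are normalized counts on a log2 scale, and 23263 of 40050 listed genes passed a minimum mean of 10 normalized counts over the 12 libraries. Whole reads recovered from the values summed to between 14.7 M and 31.0 M per library on DSS and between 27.1 M and 41.2 M on H2O. The first principal component held 35.1% of the variance and had the arms apart, while the second held 15.3% and was set by KO_DSS 3 at -169. Of the libraries, WT_DSS 4 at 14.7 and KO_H2O 2 at -31.5 lay nearest to the other arm on the first component. The targeted gene was read in every library. Glul (chromosome 1, 153899944 to 153909723, plus strand, GRCm38) had 3273, 7048 and 18267 normalized counts (lowest, median and highest) in the 6 DSS libraries, against 1655, 4172 and 7852 in the 6 H2O libraries. The arms overlapped, and the log2 difference of 0.81 had an exact two-sided permutation p of 0.11 within genotypes, where 0.005 is the smallest possible. Between genotypes Glul was lower in KO libraries by a log2 value of -0.99 (exact permutation p = 0.06), so the deletion was not resolved in whole tissue at this number of libraries. Lyz2 differed by a log2 value of 0.11 between DSS and H2O (exact permutation p = 0.83).

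A large share of the measured transcriptome differed between the DSS and the H2O libraries. Of the 23263 genes tested with limma, 6804 (29.2%) passed a Benjamini-Hochberg adjusted p under 0.05, of which 3194 were higher on DSS (13.7% of tested genes) and 3610 lower (15.5%). These 2 percentages are the background for the uncorrected counts of gene group members given below. Changes of at least 2-fold were found for 1458 of the higher and 2230 of the lower genes, and changes of at least 8-fold for 161 and 264. In 1451 genes (6.24%) all 6 DSS libraries lay above all 6 H2O libraries, and in 1530 (6.58%) all 6 lay below. Protein-coding genes made up 65.2% of the higher and 82.9% of the lower calls. The median log2 change over all tested genes was -0.07. DSS libraries were more variable than H2O libraries, with a median SD of log2 values of 0.565 on DSS and 0.407 on H2O (n = 6 each).

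The base composition of transcripts moved with treatment. The tested genes with an annotated transcript (21850, 93.9%) were ranked by the GC content of the longest one and cut into 4 bins of equal size. In the bin with the lowest GC content (17.1% to 44.1%), 24.9% were higher on DSS and 2.45% lower. In the bin with the highest GC content (53.7% to 78.3%), 2.47% were higher and 39.4% lower. The median log2 change was 0.36 in the lowest and -0.71 in the highest bin. Per library, the correlation across genes between GC content and the deviation from the mean of the 12 libraries was negative in all 6 DSS libraries (-0.32 to -0.12) and positive in all 6 H2O libraries (0.04 to 0.45). Transcript length moved little with the calls, with 9.75% to 15.5% of genes higher and 14.4% to 17.5% lower over 4 bins of length. Small structural RNAs took 2.13% to 4.36% of reads on DSS and 3.90% to 14.8% on H2O. When the GC trend of each library was subtracted, an alternative chosen after the data were seen, 3894 genes were called, 2107 higher (9.64% of 21850) and 1787 lower (8.18%), which is the background for counts with GC correction. Of the 6804 genes called without the correction 44.2% were called again, where genes without an annotated transcript count as not called again. Among those of the 6804 that had a corrected value, 96.3% kept the sign of their change. Where this correction changes the count of a gene list or gene family given below, the corrected count stands beside it. The origin of the GC trend was not tested, and since it separates the arms it cannot be told apart from the treatment.

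**Figure D1:**
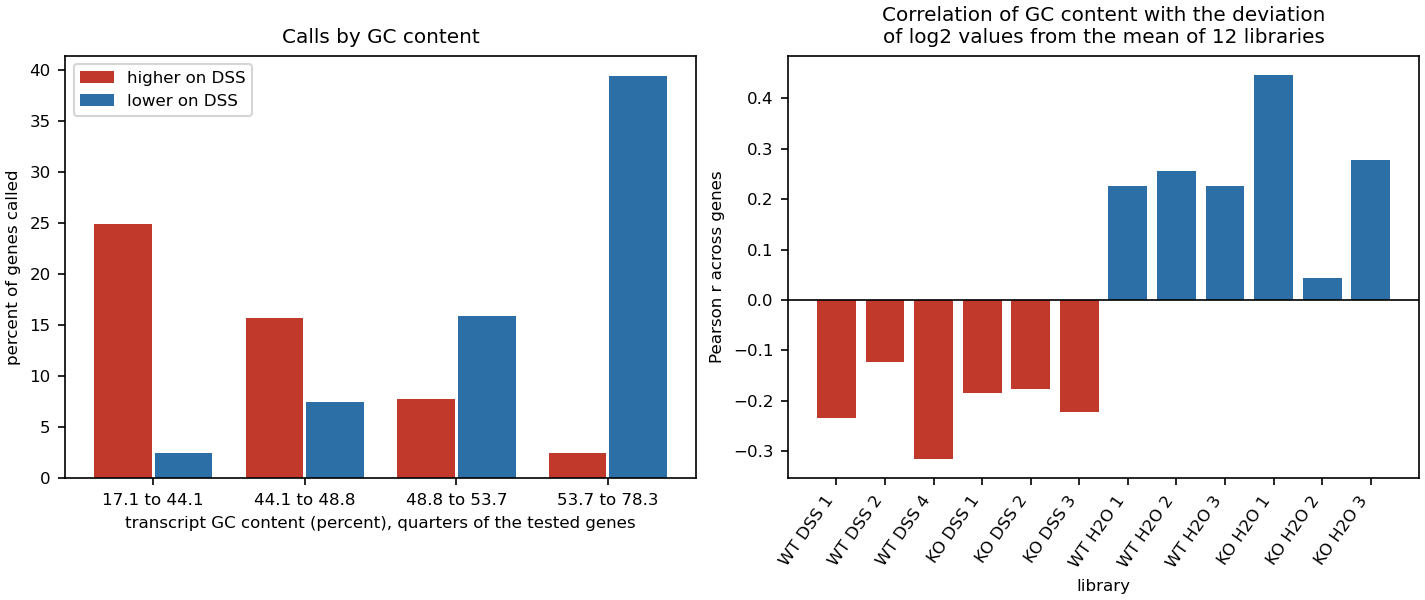
Left, percent of genes called higher (red) and lower (blue) on DSS in 4 equal bins of transcript GC content (percent, from low to high). Right, Pearson correlation across genes between GC content and the deviation of log2 values from the mean of 12 libraries, 1 bar per library, DSS red and H2O blue. Lower calls reach 39.4% in the bin richest in GC against 2.45% in the poorest, and the sign of the correlation differs between the arms in every library.

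The identity of the tissue was checked with defining markers. The epithelial genes Epcam (mean 14443 on DSS and 10526 on H2O, log2 change 0.48, adjusted p = 0.0303) and Cdh1 (log2 change 0.70, adjusted p = 0.0116) were abundant in both arms and somewhat higher on DSS. The mucin Muc2 was lower, with means of 224789 on DSS and 653428 on H2O (log2 change -1.43, adjusted p = 0.0128). Its arms overlapped, with KO_H2O 2 at 171786 and WT_DSS 4 at 435810. Krt8 (log2 change 0.11, limma adjusted p = 0.787) and Krt20 (0.59, adjusted p = 0.0836), also epithelial, did not pass. Car1, of colonocytes, had the largest change of these markers, downward (-2.98, adjusted p = 0.0602), but varied from 3333 to 159783 on H2O and did not pass. The leukocyte marker Ptprc averaged 1945 on DSS and 1043 on H2O (log2 change 0.99, adjusted p = 0.0473). The Ptprc arms overlapped, with KO_H2O 2 at 2045 and KO_DSS 3 at 892. The T cell marker Cd3e (log2 change 0.19, adjusted p = 0.865) and the smooth muscle marker Myh11 (-0.81, adjusted p = 0.112) did not pass. In bulk tissue, fewer cells of a type and less RNA per cell cannot be told apart, which applies to each cell type gene described here. Skin-type keratin Krt5 and fat marker Adipoq were under the minimum mean.

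Interferon-inducible genes had the highest shares of higher calls among the 40 gene lists examined. All 20 of 20 tested interferon-inducible GTPases were higher on DSS, with log2 changes between 1.72 and 7.42 and a median of 3.55, beside -0.07 for all genes. Most are GTPases of the Irg and Gbp families, which attach to vacuoles that hold intracellular microbes, and the list also holds Mx1, Mx2 and Gvin1. Irgm2 (chromosome 11, 58199618 to 58222782, plus strand), a regulatory member of the Irg family, had 3428, 7643 and 14299 normalized counts (lowest, median and highest) on DSS, against 451, 608 and 787 on H2O. The arms did not overlap, and the log2 change was 3.57 ± 0.33 (SE, limma adjusted p = 0.000151). Tgtp1 (chromosome 11, 48985327 to 48994172, minus strand) ranged from 736 to 18159 on DSS with a median of 3968, against 41.3 to 96.0 on H2O with a median of 47.1, a log2 change of 6.17 ± 0.74 (adjusted p = 0.000368). Its near-identical neighbour Tgtp2 changed by 5.10 ± 0.59 (adjusted p = 0.00033), and reads shared between the copies cannot be assigned. Iigp1 changed by 6.50 ± 0.64 (adjusted p = 0.000178), and Gbp10, of a cluster of similar guanylate-binding proteins, by 7.42 ± 0.99 (adjusted p = 0.000564). Olfr56 changed by 5.66 ± 0.85, but its annotated span (chromosome 11, 48978889 to 49135387, plus strand) encloses Tgtp1 and Tgtp2 on the opposite strand, and whether strand was used in counting is not given in these sources. Olfr56 was not called when recovered reads were tested with voom weights (adjusted p = 0.0561).

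The promoters of 3 interferon-induced genes and of Cxcl2 are shown so that motif matches can be read beside the values, and were chosen after their matches were seen. Of the 8 named members of the interferon lists with a promoter sequence, 4 held the interferon element and 3 (Dtx3l, Oasl2 and Herc6) held none of the motifs. The sequences are from RefSeq (GRCm38.p6), 250 bases before to 50 after the start, 5′ to 3′ on the strand of the gene. Only the first listed start of each gene was used. For Irgm2 and Tgtp1 it lies inside the gene span given above and not at its end. Capitals mark matches on either strand to GAAANNGAA (core of the interferon response element), TTCNNNGAA (Stat element), GGANTTTCC (NF-kB) or TGANTCA (AP-1), which may overlap. The windows are chr11:58214727-58215026 (plus strand) for Irgm2, chr11:48992197-48992496 (minus strand) for Tgtp1, chr5:92348840-92349139 (minus strand) for the chemokine gene Cxcl10 and chr5:90903649-90903948 (plus strand) for the chemokine gene Cxcl2.
Irgm2: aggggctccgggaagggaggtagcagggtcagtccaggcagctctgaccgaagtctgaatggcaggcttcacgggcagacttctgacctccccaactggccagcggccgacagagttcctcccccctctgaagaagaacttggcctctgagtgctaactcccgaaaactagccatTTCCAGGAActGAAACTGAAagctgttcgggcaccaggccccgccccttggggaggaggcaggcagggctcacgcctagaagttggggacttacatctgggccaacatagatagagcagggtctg
Tgtp1: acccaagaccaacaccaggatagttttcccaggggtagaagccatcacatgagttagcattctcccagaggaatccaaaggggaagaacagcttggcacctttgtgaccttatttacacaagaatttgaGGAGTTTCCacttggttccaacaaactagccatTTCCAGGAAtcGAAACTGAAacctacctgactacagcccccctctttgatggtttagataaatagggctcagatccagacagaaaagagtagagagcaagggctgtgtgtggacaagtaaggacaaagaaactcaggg
Cxcl10: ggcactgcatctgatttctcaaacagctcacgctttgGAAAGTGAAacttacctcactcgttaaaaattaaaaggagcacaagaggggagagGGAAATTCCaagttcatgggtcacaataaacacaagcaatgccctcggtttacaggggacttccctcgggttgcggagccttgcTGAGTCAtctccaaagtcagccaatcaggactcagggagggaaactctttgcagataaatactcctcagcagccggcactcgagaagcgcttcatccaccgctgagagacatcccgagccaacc
Cxcl2: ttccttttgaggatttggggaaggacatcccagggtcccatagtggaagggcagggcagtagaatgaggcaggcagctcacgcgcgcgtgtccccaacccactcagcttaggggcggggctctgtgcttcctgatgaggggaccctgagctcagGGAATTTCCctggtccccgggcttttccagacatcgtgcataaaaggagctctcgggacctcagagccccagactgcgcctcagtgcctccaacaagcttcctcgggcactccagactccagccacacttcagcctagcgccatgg
The Irgm2 and Tgtp1 windows each held a Stat match followed by an interferon element match, Tgtp1 also an NF-kB match, and the Cxcl10 window held an interferon element match, an NF-kB match and an AP-1 match. The Cxcl2 window held an NF-kB match only. A match describes the letters and does not show binding.

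Promoters were available for 12619 of the tested genes (54.2%). GAAANNGAA was found in 18.4% of 575 promoters of genes called higher by at least 2-fold, 6.32% of 1329 promoters of genes called lower by at least 2-fold, and 7.31% of all. Among the members of the 3 interferon lists it was in 62.8% of 43 promoters, and 15.5% of the 543 higher genes outside those lists held it. TTCNNNGAA was in 10.8% of the higher, 6.02% of the lower and 7.02% of all promoters. GGANTTTCC was in 3.30% of the higher, 0.903% of the lower and 1.36% of all promoters. TGANTCA was in 12.2% of the higher, 6.40% of the lower and 5.54% of all promoters. The motif CAAAGTCCA of the epithelial factor HNF4 was in 0.522% of the higher, 0.376% of the lower and 0.436% of all promoters. Promoters of the higher genes also had a lower median GC content, at 54.3%, than those of the lower genes at 60.7% and of all genes at 60.0%. The part of base composition in the motif shares was not tested.

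Regulators of the interferon pathway rose together with its targets. Of 16 tested regulators 13 were higher and none lower (14 higher with GC correction), with a median log2 change of 1.85. Nlrc5, the transactivator of MHC class I genes, changed by 3.54 ± 0.43 (adjusted p = 0.000382). Parp9 and Dtx3l, partners in a complex that modifies proteins in the interferon response, changed by 2.59 ± 0.28 and 2.51 ± 0.27 (adjusted p = 0.000238 and 0.000241), and the ends of these genes overlap on opposite strands. The receptor subunit Ifngr1, which binds interferon gamma, was higher by 1.32 ± 0.22 (adjusted p = 0.0015). Socs1, a feedback inhibitor of Jak kinases, was also among the genes that rose.

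Antiviral effectors followed the same direction, with 25 of 29 higher, none lower and a median log2 change of 2.24. Zbp1 (chromosome 2, 173206612 to 173218923, minus strand), a sensor of left-handed nucleic acids that can start necroptosis, had 1842, 2479 and 6673 normalized counts on DSS, against 91.5, 174 and 368 on H2O. The arms did not overlap, and the log2 change was 4.05 ± 0.36 (adjusted p = 0.000139). Oasl2, of the oligoadenylate synthetase family, changed by 3.40 ± 0.43 (adjusted p = 0.000452), Herc6, the mouse ligase that attaches Isg15, by 3.09 ± 0.39 (adjusted p = 0.000438), and Xaf1, a factor that promotes apoptosis, by 2.52 ± 0.31 (adjusted p = 0.000435). Outside the list, Slfn1, a Schlafen family gene, was among the 10 largest rises of all (5.51 ± 0.63, adjusted p = 0.000322), at 32.1 to 95.1 normalized counts on DSS and 0 to 10.5 on H2O. Trim12a, also outside the list and of the family of tripartite motif restriction factors, was among the 10 genes with the smallest p, with 2271 to 3223 on DSS and 454 to 782 on H2O (log2 change 2.04 ± 0.16, adjusted p = 7.09e-05).

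The size of the interferon response differed widely among DSS libraries. The mean log2 level of the GTPase list, relative to the mean of the 6 H2O libraries, was 2.65, 5.24 and 4.15 in KO_DSS 1, 2 and 3 and 5.29, 2.45 and 3.69 in WT_DSS 1, 2 and 4. The highest H2O library was KO_H2O 2 at 0.54, so that every DSS library lay above every H2O library. Both genotypes had libraries at the high end and at the low end of the DSS range.

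**Figure D2:**
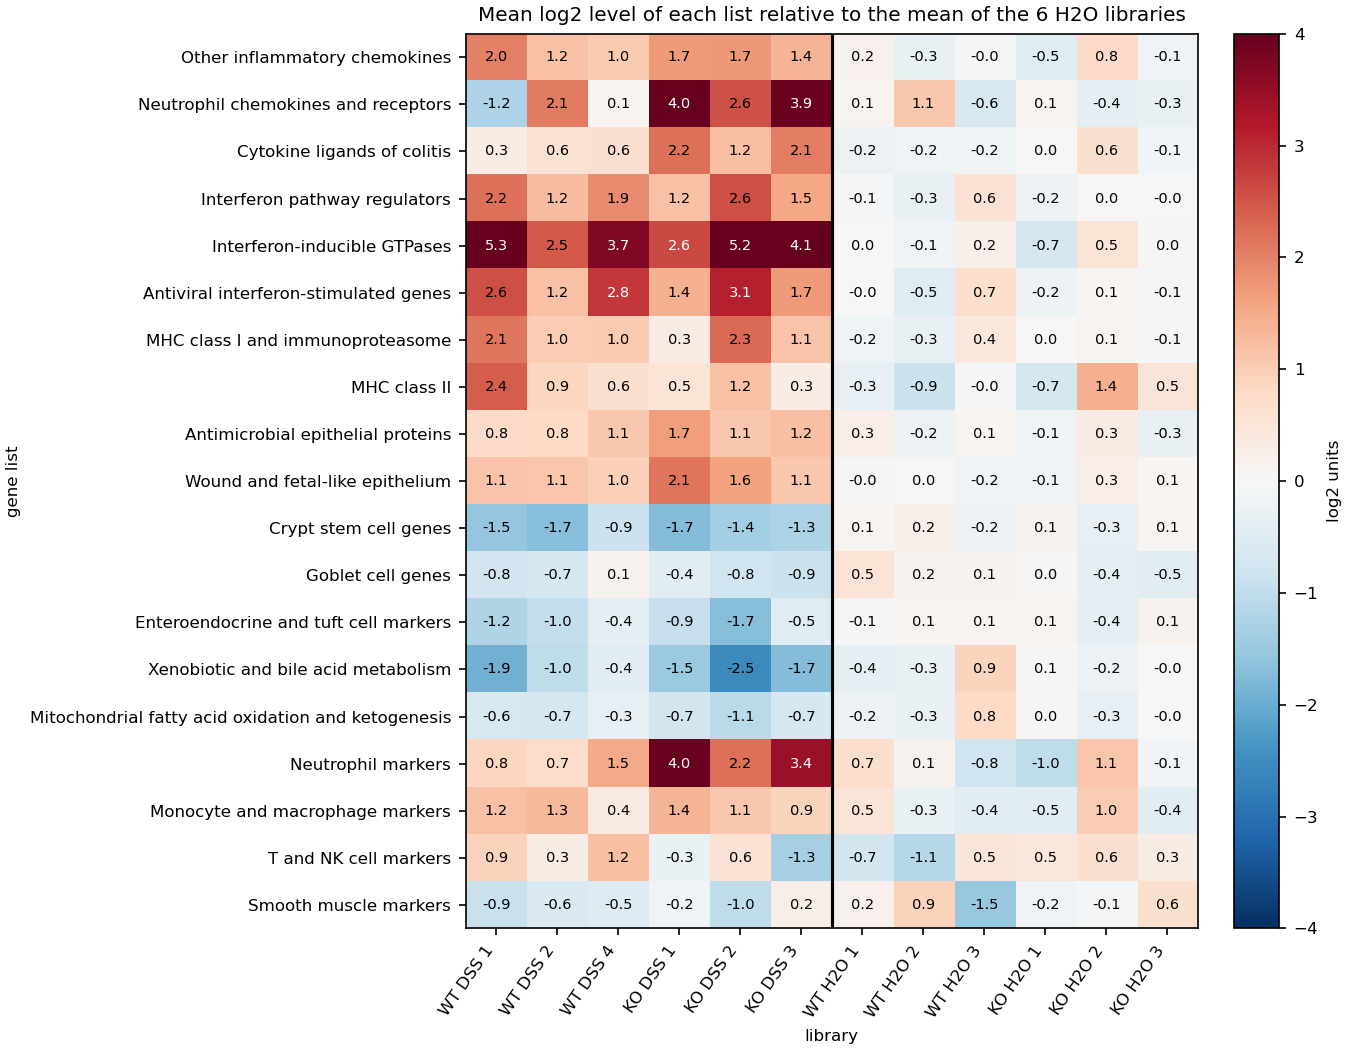
Mean log2 level of the tested members of 19 gene lists (down the page) in each library (6 DSS libraries left of the line, 6 H2O libraries right of it), relative to the mean of the H2O libraries, with the value printed in each cell and the colour scale capped at 4. Interferon-inducible GTPases lie between 2.45 and 5.29 in DSS libraries, and crypt stem cell genes between -1.72 and -0.87.

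Antigen presentation genes of class I and class II rose, and in both lists the levels of the arms overlapped. Of 19 class I and immunoproteasome genes 13 were higher and none lower (16 with GC correction, median log2 change 1.02). The class I list level was 0.34 in KO_DSS 1, below WT_H2O 3 at 0.42, and the higher count fell to 10 without WT_DSS 1. Tap1 (chromosome 17, 34187553 to 34197225, plus strand), a subunit of the transporter that loads peptides, had 1429, 2412 and 4855 normalized counts on DSS, against 303, 374 and 562 on H2O, with no overlap and a log2 change of 2.69 ± 0.32 (adjusted p = 0.00035). The immunoproteasome subunit Psmb8 changed by 2.51 ± 0.40 (adjusted p = 0.00122), its activator Psme1 by 2.07 ± 0.30 (adjusted p = 0.000809) and the light chain B2m by 3.22 ± 0.54 (adjusted p = 0.00141), the last with overlapping arms. Class II genes were higher in 8 of 11 tested members (7 with GC correction, median log2 change 1.52). Ctss, the protease that trims the invariant chain, changed by 1.73 ± 0.28 (adjusted p = 0.00133), the invariant chain Cd74 by 2.31 ± 0.60 (adjusted p = 0.0127) and the master regulator Ciita by 1.86 ± 0.50 (adjusted p = 0.0152). The class II count fell to 4 without KO_DSS 2 or without WT_H2O 2, and to 5 without any of WT_DSS 1, WT_DSS 2, KO_DSS 3, WT_H2O 3, KO_H2O 1 and KO_H2O 3. Within the H2O arm KO_H2O 2 had the highest class II level, at 1.43 log2 units above the arm's mean.

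Chemokine ligands rose in part. Of 15 tested inflammatory chemokines other than those acting on neutrophils, 6 were higher (5 with GC correction) and 1, Ccl6, lower (median log2 change 1.22). The Ccl6 call was lost without any of 8 libraries, WT_DSS 2, WT_DSS 4, KO_DSS 1, KO_DSS 3, WT_H2O 1, WT_H2O 3, KO_H2O 1 and KO_H2O 2. Cxcl10 (chromosome 5, 92346638 to 92348889, minus strand), an interferon-induced ligand of Cxcr3 on T cells, had 180, 443 and 1329 normalized counts on DSS, against 9.49, 15.01 and 39.2 on H2O. The arms did not overlap (log2 change 4.74 ± 0.49, adjusted p = 0.000215). Its relative Cxcl9 changed by 5.35 ± 0.80 (adjusted p = 0.000897), the monocyte attractant Ccl7 by 2.78 ± 0.54 (adjusted p = 0.00308) and the membrane-bound Cxcl16 by 1.13 ± 0.25 (adjusted p = 0.00543). Of the neutrophil chemokines and receptors 5 of 9 reached the minimum mean and 2 were higher (1 with GC correction, and 1 without any of WT_DSS 2, the 3 KO_DSS and the 3 KO_H2O libraries). Cxcl2 ranged from 7.41 to 332 on DSS with a median of 24.4 and from 0 to 4.81 on H2O (log2 change 4.55 ± 0.84, adjusted p = 0.00236). Cxcl1 was at 0 in at least 1 library of each arm and its call (log2 change 3.60 ± 1.16, adjusted p = 0.0344) ended in 10 of 25 alternatives, among them GC correction (adjusted p = 0.0645). For Cxcl1 the change was 6.88 within KO libraries and 0.31 within WT libraries, a difference that did not pass the interaction test over all genes. Among 8 homeostatic chemokines Ccl28, an epithelial attractant of plasma cells, and Cxcl13, which guides B cells, were higher (1.28 ± 0.33 and 2.03 ± 0.71, adjusted p = 0.0124 and 0.0481), and both calls ended with GC correction (adjusted p = 0.0612 and 0.118). That count was 1 without any of 8 libraries, WT_DSS 1, WT_DSS 4, KO_DSS 1, KO_DSS 3, WT_H2O 1, WT_H2O 2, KO_H2O 1 and KO_H2O 3.

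Cytokine ligands included the classical mediators of acute colitis. Of 18 tested ligands 7 were higher and none lower, with a median log2 change of 1.24. The median was 2.19 within KO and 0.46 within WT libraries. The list level was 0.31 in WT_DSS 1 and 0.60 in WT_DSS 2, below KO_H2O 2 at 0.64, so the arms overlapped. Il1b (chromosome 2, 129364570 to 129371139, minus strand), the inflammasome-processed interleukin, had 74.9, 168 and 429 normalized counts on DSS, against 8.67, 18.2 and 37.0 on H2O, without overlap (log2 change 3.11 ± 0.43, adjusted p = 0.000606). Tnf (chromosome 17, 35199381 to 35202007, minus strand) had 82.2, 167 and 273 on DSS, against 15.7, 24.6 and 40.6 on H2O, without overlap (2.52 ± 0.34, adjusted p = 0.000589). Il1a changed by 2.36 ± 0.50 (adjusted p = 0.00482) and the receptor antagonist Il1rn by 2.71 ± 0.48 (adjusted p = 0.00199). Il18, Areg and Ereg completed the rises, the last 2 being ligands of the epidermal growth factor receptor. Of 34 listed ligands 31 were among the deposited genes, and 18 reached the minimum mean. Among 30 receptors 6 were higher and 3 lower (8 and 0 with GC correction), with a median log2 change of 0.16, and 5 were lower without WT_DSS 2. Il13ra1, shared by interleukins 4 and 13, changed by 1.51 ± 0.22 (adjusted p = 0.00076), and Osmr, the oncostatin M receptor, by 1.49 ± 0.29 (adjusted p = 0.00288). Il17rc, a subunit of the interleukin 17 receptor, had a log2 change of -0.89 ± 0.19 (adjusted p = 0.00453), which was 0.15 with GC correction (adjusted p = 0.604).

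Feedback and target genes of NF-kB and Stat3 were higher in 8 of 20 and lower in 2, Nfkb2 and Relb (11 and 1 with GC correction, median log2 change 0.58). The lower count was 1 without any of WT_DSS 1, WT_DSS 4, KO_DSS 1, KO_DSS 2, WT_H2O 2, WT_H2O 3 and KO_H2O 1. Tnip3, a partner of the NF-kB inhibitor A20, had 698, 2496 and 5981 normalized counts on DSS, against 42.9, 103 and 543 on H2O (log2 change 4.25 ± 0.66, adjusted p = 0.00105). A20 itself, encoded by Tnfaip3, changed by 1.10 ± 0.23 (adjusted p = 0.00442), and Tifa, an adaptor for bacterial sugar sensing, by 1.68 ± 0.38 (adjusted p = 0.00663). Nfkb2 had a log2 change of -0.62 ± 0.14 (adjusted p = 0.00759), which was 0.21 with GC correction (adjusted p = 0.261).

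**Figure D3:**
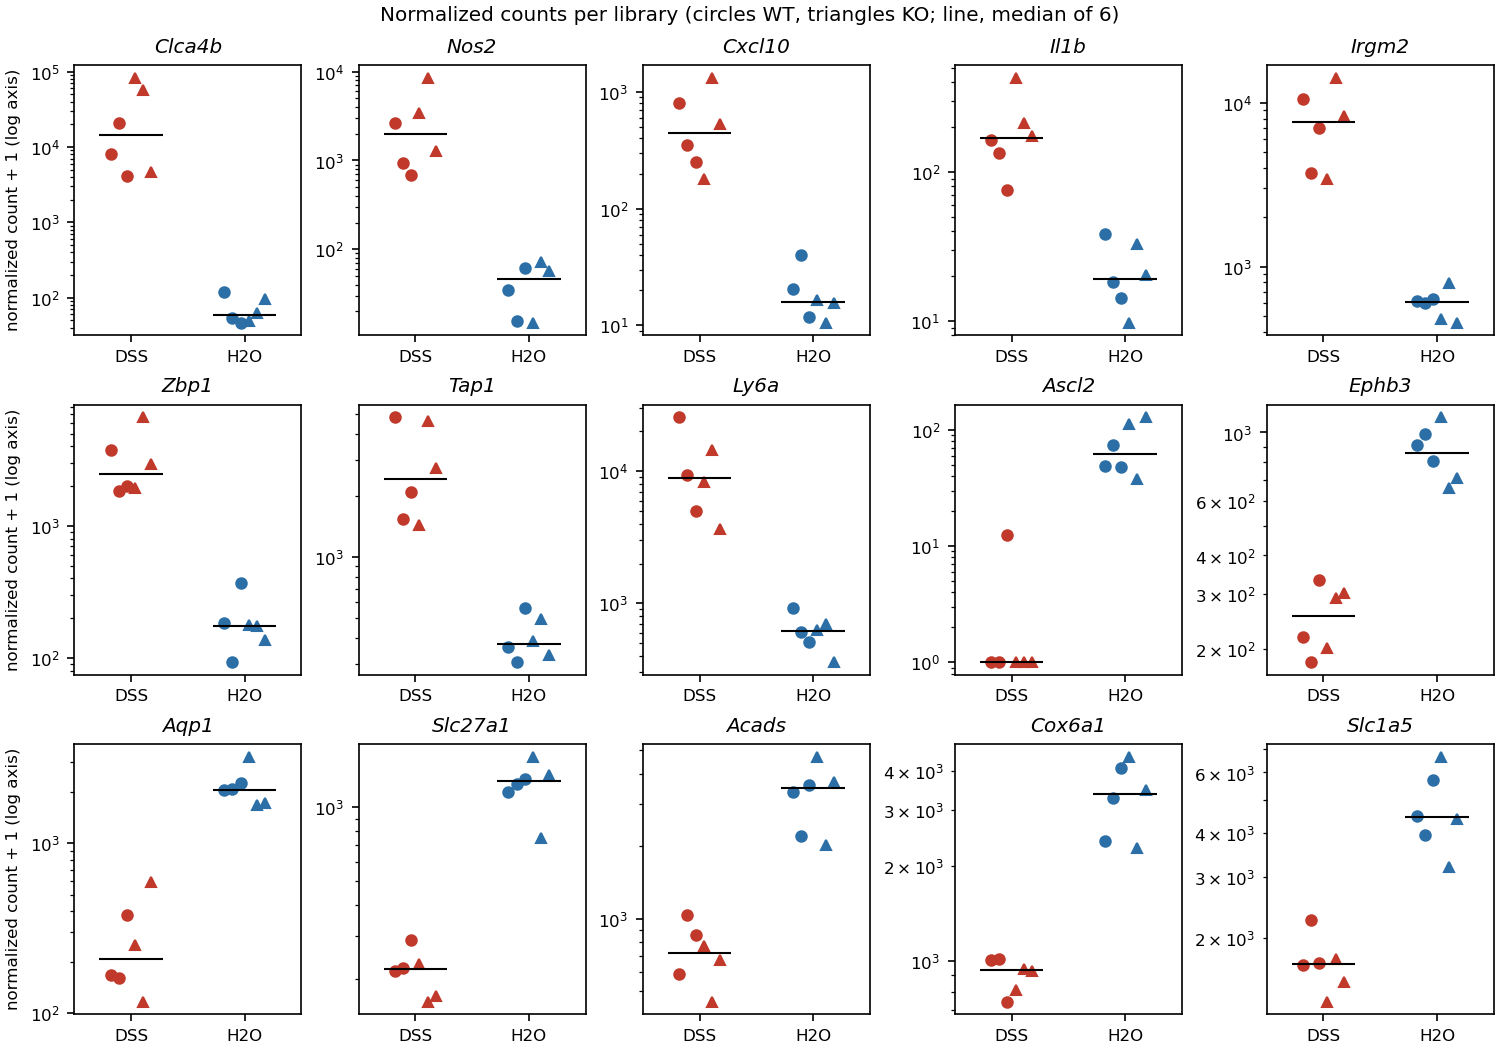
Normalized counts plus 1 on a log axis for 15 genes, DSS left and H2O right in each panel, circles WT and triangles KO libraries, with the median of 6 as a line. The arms do not overlap in any of the 15 genes shown, which were chosen among those without overlap.

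Epithelial defence genes rose in 12 of 32 tested members, with Ang4 as the 1 that fell (13 and 1 with GC correction, median log2 change 1.25). Of the 12, S100a8 and S100a9 are also in the list of neutrophil markers, and without KO_DSS 1 the lower count was 2. Nos2 (chromosome 11, 78920787 to 78960254, plus strand), which makes nitric oxide, had 688, 1963 and 8580 normalized counts on DSS, against 13.9, 45.4 and 70.7 on H2O. The arms did not overlap (log2 change 5.81 ± 0.57, adjusted p = 0.000178). The very abundant Lypd8, which keeps flagellated bacteria from the epithelium, had a median of 187480 on DSS and 52526 on H2O (1.62 ± 0.29, adjusted p = 0.00199). Pigr, the carrier of immunoglobulin A across the epithelium, changed by 1.01 ± 0.19 (adjusted p = 0.00284), and the bacterial wall binding protein Pglyrp1 by 1.33 ± 0.19 (adjusted p = 0.000705).

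Genes that mark wounded or fetal-like epithelium were higher in 14 of 27 tested members and lower in none (11 and 0 with GC correction, median log2 change 1.41). Clca4b (chromosome 3, 144910921 to 144932529, minus strand), of the calcium-activated chloride channel regulator family, had the most positive log2 change of the named genes. It had 4173, 14466 and 83719.5 normalized counts on DSS, against 45.3, 57.3 and 117 on H2O, with no overlap and a log2 change of 7.89 ± 0.66 (adjusted p = 8.21e-05). Ly6a, also known as Sca-1 and a marker of the fetal-like state, had 3620, 8818 and 25699 on DSS, against 356, 619 and 915 on H2O (3.91 ± 0.40, adjusted p = 0.000215). Sprr2a3, a small proline-rich protein with near-identical copies, changed by 1.68 ± 0.22 (adjusted p = 0.000533). Anxa1 and F3 were also among the genes that rose. Ly6a is induced by interferon as well, so that it does not count for 1 group alone.

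Crypt stem cell genes fell together. All 18 tested members had a lower mean log2 value on DSS, 12 of them passed and none was higher (11 with GC correction), with a median log2 change of -0.92. Ascl2 (chromosome 7, 142966829 to 142969264, minus strand), a transcription factor that maintains intestinal stem cells, was at 0 in 5 of 6 DSS libraries and at 11.5 in WT_DSS 4, against 36.4, 60.9 and 128 (lowest, median, highest) on H2O. The arms did not overlap (log2 change -5.47 ± 0.69, adjusted p = 0.000452). Ephb3 (chromosome 16, 21204755 to 21223305, plus strand), a receptor that positions cells along the crypt, had 179, 253 and 333 on DSS, against 660, 860 and 1121 on H2O (-1.78 ± 0.20, adjusted p = 0.000312). Tnfrsf19 changed by -1.43 ± 0.23 (adjusted p = 0.00125) and Lrig1, an inhibitor of growth factor receptors in stem cells, by -0.95 ± 0.16 (adjusted p = 0.00134). Lgr5, Axin2, Rnf43, Znrf3 and Nkd1, targets of Wnt signalling, were also among the genes that fell. Cell cycle and DNA replication genes had few calls, with 2 of 30 higher (Ccnd1 and Myc) and 1 lower (Tk1). The higher count was 5 without WT_DSS 2 and 4 without any of WT_DSS 4, KO_DSS 1 and KO_H2O 2, and no gene was lower without KO_H2O 1. Their list level lay between -0.53 and 1.09 log2 units in DSS libraries and between -0.34 and 0.36 in H2O libraries, and their median log2 change was 0.73 within KO and -0.06 within WT libraries. Ccnd1 changed by 1.19 ± 0.26 (adjusted p = 0.00539), Myc by 0.76 ± 0.21 (adjusted p = 0.0159) and Tk1 by -0.66 ± 0.19 (adjusted p = 0.0217), the last not called with GC correction (adjusted p = 0.132).

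Goblet cell genes were lower in 10 of 27 and higher in 4, with 7 and 3 after GC correction and a median log2 change of -0.66. The fall took in regulators of the secretory programme. Foxa3 changed by -1.32 ± 0.19 (adjusted p = 0.000789), the goblet cell stress sensor Ern2 by -1.46 ± 0.23 (adjusted p = 0.00103) and Creb3l4 by -1.04 ± 0.21 (adjusted p = 0.00381), and Spdef was also called. The transporter Slc12a8 had 225 to 780 normalized counts on DSS and 889 to 2833 on H2O (-2.33 ± 0.32, adjusted p = 0.000603). The membrane mucins Muc1, Muc13 and Muc3 were higher. Among enteroendocrine and tuft cell markers 5 of 20 were lower and none higher (4 and 1 with GC correction). Of the 5, 4 are genes of tuft cells, the chemosensory cells of the epithelium. Their transcription factor Pou2f3 had 0 to 24.7 normalized counts on DSS and 19.5 to 74.0 on H2O (-3.69 ± 0.85, adjusted p = 0.00738), and the taste channel Trpm5 28.5 to 312 on DSS and 208 to 793 on H2O (-2.70 ± 0.58, adjusted p = 0.00516). In both genes the lowest H2O library was KO_H2O 2.

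Genes of ion and water transport in absorptive colonocytes had few calls, with 2 of 30 higher and 4 lower (4 and 2 with GC correction) and a median log2 change of -0.05. The higher count was 6 without KO_H2O 2, and the lower count 2 without any of WT_DSS 2, KO_DSS 2 and KO_H2O 1. Single members changed strongly. Aqp1 (chromosome 6, 55336432 to 55348555, plus strand), a water channel, had 115, 208 and 592 normalized counts on DSS, against 1681, 2074 and 3250 on H2O, without overlap (-3.17 ± 0.35, adjusted p = 0.000288). Guca2a, the precursor of the fluid-regulating peptide guanylin, had 247 to 3699 on DSS and 4193 to 12302 on H2O (-2.30 ± 0.48, adjusted p = 0.00459). Atp12a, a potassium-transporting proton pump of the colon surface, changed by 6.16 ± 1.49 (adjusted p = 0.00952), but WT_DSS 4 was at 61.8 while the DSS median was 9426. Atp1b1, the beta subunit of the sodium pump, was higher by 0.78 ± 0.17 (adjusted p = 0.00609). Outside the list, the potassium channel Kcnq1 had 507 to 699.9 on DSS and 1591 to 3009 on H2O (-1.79 ± 0.17, adjusted p = 0.00016). Junction genes were split, with 5 of 22 higher and 4 lower (9 and 2 with GC correction). The scaffold Tjp1, also called ZO-1, changed by 1.28 ± 0.18 (adjusted p = 0.000756) and the intestinal cadherin Cdh17 by 1.25 ± 0.20 (adjusted p = 0.00114). The claudins Cldn15, which forms cation pores, and Cldn23 were lower by -3.05 ± 0.59 and -1.46 ± 0.31 (adjusted p = 0.00303 and 0.00515). The higher count was 3 without any of KO_DSS 1, KO_DSS 2, WT_H2O 1, WT_H2O 2 and KO_H2O 3.

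**Figure D4:**
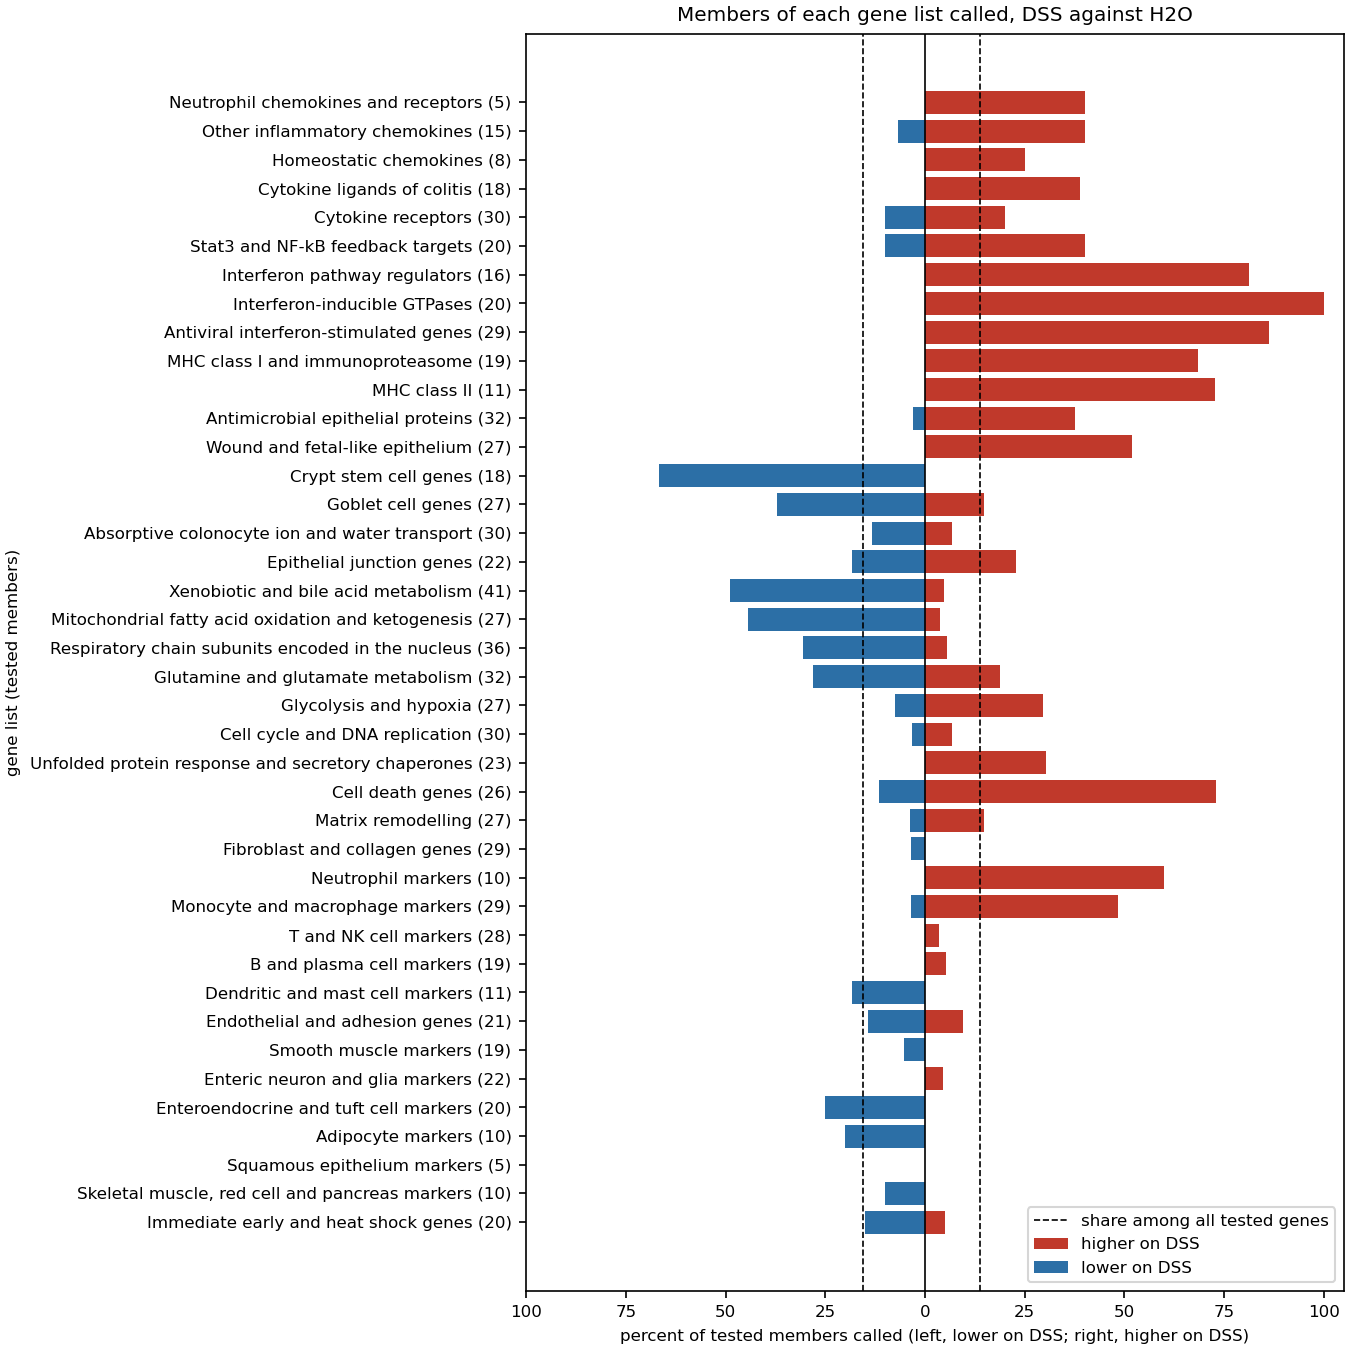
Percent of tested members of each of 40 gene lists called higher (red, right of 0) or lower (blue, left of 0) on DSS, with the number of tested members in parentheses. Dashed lines give the shares among all tested genes, 13.7% higher and 15.5% lower, which the interferon lists exceed on the right and the crypt stem cell list on the left.

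Many metabolic genes of the mature epithelium were lower. Xenobiotic and bile acid metabolism had 20 of 41 tested members lower and 2 higher (15 and 1 with GC correction), with a median log2 change of -1.002. The higher count was 4 without KO_H2O 2, 0 without KO_H2O 1 or KO_H2O 3, and 1 without any of WT_DSS 2, KO_DSS 1, KO_DSS 2 and the 3 WT_H2O libraries. Ces1g, a carboxylesterase, had 15.1, 62.0 and 363 normalized counts on DSS, against 437, 1195 and 4771 on H2O, without overlap (-4.34 ± 0.75, adjusted p = 0.00171). Ugt2b36, a glucuronosyltransferase, was at a median of 0 on DSS and 38.1 on H2O (-4.91 ± 0.68, adjusted p = 0.000649), and the glutathione transferase Gstm3 at 96.0 and 533 (-2.21 ± 0.38, adjusted p = 0.00167). Cyp4b1 had the most negative change of the named genes (-5.99 ± 0.997, adjusted p = 0.00141), at 0 to 37.4 on DSS and 113 to 2948 on H2O, and did not pass when recovered reads were tested with voom weights (adjusted p = 0.121).

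Fatty acid oxidation and ketogenesis had 12 of 27 members lower and 1 higher (10 and 1 with GC correction), with a median log2 change of -0.52, and 2 were higher without WT_H2O 3. Acads (chromosome 5, 115110299 to 115119346, minus strand), the dehydrogenase of short-chain acyl-CoA such as that made from butyrate, had 449.8, 720.2 and 1037 normalized counts on DSS, against 2032, 3477 and 4717 on H2O, without overlap (-2.15 ± 0.25, adjusted p = 0.000312). Outside the list, Slc27a1 (chromosome 8, 71568882 to 71587302, plus strand), a fatty acid transport protein, had 160.3, 218 and 287 on DSS, against 746, 1279 and 1609 on H2O (-2.52 ± 0.20, adjusted p = 7.09e-05). The nuclear receptor Ppara changed by -2.37 ± 0.37 (adjusted p = 0.00114) and the thiolase Acaa2 by -1.58 ± 0.22 (adjusted p = 0.000651). The dehydrogenase Acadvl also fell. The exception was Acadl, a dehydrogenase of long-chain acyl-CoA, which had 6083 to 10246 on DSS and 1649 to 3431 on H2O (1.89 ± 0.21, adjusted p = 0.000296).

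Nuclear-encoded respiratory chain subunits were lower in 11 of 36 and higher in 2 (10 and 3 with GC correction), around a median log2 change of -0.17. The higher count was 1 without any of WT_DSS 1, KO_DSS 1, KO_DSS 2, WT_H2O 1, WT_H2O 2, KO_H2O 1 and KO_H2O 3. Cox6a1, a subunit of cytochrome c oxidase, had 741, 934 and 1016 normalized counts on DSS, against 2274, 3376 and 4430.1 on H2O, without overlap (-1.84 ± 0.18, adjusted p = 0.000191). Ndufs7, of complex I, changed by -1.68 ± 0.15 (adjusted p = 0.00011) and Cox8a by -2.46 ± 0.33 (adjusted p = 0.000568). Cyc1 had a change of -1.004 ± 0.14 (adjusted p = 0.000699), which was -0.0043 with GC correction (adjusted p = 0.99). Glycolysis and hypoxia genes were higher in 8 of 27 and lower in 2 (15 and 0 with GC correction). Hexokinase Hk2 changed by 1.68 ± 0.32 (adjusted p = 0.00267), the mitophagy receptor Bnip3 by 1.60 ± 0.24 (adjusted p = 0.000906), the oxygen sensor Egln3 by 1.47 ± 0.25 (adjusted p = 0.00148) and Pdk1, which limits pyruvate oxidation, by 1.16 ± 0.24 (adjusted p = 0.00396).

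Glutamine and glutamate genes, the pathway of the targeted enzyme, were lower in 9 of 32 and higher in 6, and 9 were lower and 0 higher with GC correction. Slc1a5 (chromosome 7, 16781340 to 16798274, plus strand), a glutamine importer, had 1304, 1675 and 2254 normalized counts on DSS, against 3209, 4448 and 6671 on H2O, without overlap (-1.47 ± 0.18, adjusted p = 0.00044). Oat, which turns ornithine into a glutamate precursor, changed by -1.10 ± 0.13 (adjusted p = 0.000371), the exchanger Slc7a6 by -1.47 ± 0.24 (adjusted p = 0.00125) and the transaminase Gpt2 by -1.29 ± 0.22 (adjusted p = 0.00172). The 6 higher members, among them Gfpt1, Slc7a11, Asns, Ppat and Gmps, lay near the threshold, since the count was 0 without KO_H2O 3, 1 without any of WT_DSS 1, KO_DSS 2 and KO_H2O 1, and 3 without KO_DSS 1 or KO_DSS 3.

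Secretory chaperones of the unfolded protein response were higher in 7 of 23 and lower in none, although the median log2 change was 0.18. Calr, a calcium-binding chaperone, changed by 1.53 ± 0.25 (adjusted p = 0.00126), the disulfide isomerase Pdia3 by 1.27 ± 0.23 (adjusted p = 0.00199), Manf by 1.34 ± 0.25 (adjusted p = 0.00238) and Dnajb9 by 1.25 ± 0.20 (adjusted p = 0.00131). Cell death genes were higher in 19 of 26 and lower in 3 (13 and 2 with GC correction). The lists share 28 genes, 12 of them called, so their counts are not independent. Zbp1 counts as antiviral and as cell death gene, Gsdmc2 and Gsdmc4 as wound and cell death genes, Il1rn, Areg and Ereg as cytokines and wound genes, and Mmp13 as wound and matrix gene. Csf3r counts as receptor and neutrophil marker, Ciita as interferon regulator and class II gene, Icam1 as NF-kB target and adhesion gene, and S100a8 and S100a9 as defence genes and neutrophil markers. Mlkl, which opens the membrane in necroptosis, changed by 2.10 ± 0.30 (adjusted p = 0.000699). Bax, a trigger of the mitochondrial route, had a change of -1.61 ± 0.23 (adjusted p = 0.000678), which was -0.45 with GC correction (adjusted p = 0.141).

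Among immune cell markers, more myeloid than lymphoid genes were higher. Neutrophil markers were higher in 6 of 10 tested members of 22 listed (4 with GC correction, median log2 change 2.30). A marker near 0 on H2O reached the minimum mean only through its DSS libraries, which favours higher calls and the median in such a list. At a minimum mean of 50 the higher count was 2. The same limit holds for the neutrophil chemokines and the cytokine ligands, with 1 and 6 higher at a minimum mean of 50. Ly6g (chromosome 15, 75155240 to 75159126, plus strand), the surface marker of mouse neutrophils, had 178, 1034 and 7874 normalized counts on DSS, against 0, 19.9 and 335 on H2O, with overlapping arms (6.25 ± 1.19, adjusted p = 0.00286). Csf3r, the receptor for granulocyte colony-stimulating factor, changed by 2.06 ± 0.46 (adjusted p = 0.0065), and the calprotectin subunit S100a8 by 3.25 ± 0.91 (adjusted p = 0.0188) at a DSS median of only 13.8. The neutrophil list level was 4.04, 2.20 and 3.44 log2 units in KO_DSS 1, 2 and 3 and 0.85, 0.73 and 1.53 in WT_DSS 1, 2 and 4, with KO_H2O 2 highest on H2O at 1.10. Monocyte and macrophage markers were higher in 14 of 29 and lower in 1 (16 and 1 with GC correction, median log2 change 0.57). Mpeg1, a pore-forming protein of phagocytes, changed by 1.94 ± 0.34 (adjusted p = 0.00188), the monocyte chemokine receptor Ccr2 by 2.20 ± 0.44 (adjusted p = 0.00347) and the Fc receptor Fcgr4 by 2.13 ± 0.42 (adjusted p = 0.00333). Mertk, a receptor for the uptake of dead cells, was the member that fell. T and NK cell markers had 1 of 28 higher (Gzmb, 3.17 ± 0.90, adjusted p = 0.0196), and B and plasma cell markers 1 of 19 higher (Prdm1, 1.31 ± 0.25, adjusted p = 0.00281), both under the background of 13.7%. The T and NK cell count was 3 without WT_DSS 4 or KO_DSS 3 and 2 without KO_H2O 2. Of the dendritic and mast cell markers 2 of 11 were lower, Kit and Zbtb46 (-1.35 ± 0.32 and -0.80 ± 0.22, adjusted p = 0.00843 and 0.017), of which Kit is also a gene of pacemaker cells of the gut wall.

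Stromal genes showed few calls. Fibroblast and collagen genes had 1 of 29 lower (Pdgfrb, adjusted p = 0.044, not called with GC correction), smooth muscle markers 1 of 19 lower (Smtn, adjusted p = 0.0297, not called with GC correction) and enteric neuron and glia markers 1 of 22 higher (Tac1, 2.31 ± 0.58, adjusted p = 0.0107). Without WT_H2O 3, which had the lowest smooth muscle level of the H2O libraries at -1.52, the counts of lower genes were 5 for fibroblasts and 6 for smooth muscle. With other single libraries left out these counts lay between 0 and 3 for fibroblasts (3 without WT_DSS 2) and between 0 and 2 for smooth muscle (2 without KO_H2O 2). Endothelial and adhesion genes were higher in 2 of 21, the leukocyte adhesion molecules Vcam1 (1.77 ± 0.35, adjusted p = 0.0032) and Icam1 (0.92 ± 0.27, adjusted p = 0.0226), and lower in 3, Eng, Plvap and Egfl7 (0 with GC correction). The higher count was 1 without any of WT_DSS 1, KO_H2O 1 and KO_H2O 3, and the lower count was 1 without KO_DSS 2 and 5 without WT_DSS 2. Matrix remodelling genes were higher in 4 of 27, Mmp10, Mmp12, Mmp13 and Timp3, and lower in 1, Mmp15 (0 with GC correction). The metalloproteinase Mmp10 had 25.2, 106 and 3867 normalized counts on DSS, against 0, 3.10 and 12.03 on H2O (5.58 ± 1.14, adjusted p = 0.004), and was not called with voom weights (adjusted p = 0.106). Mmp12, the macrophage elastase, changed by 3.74 ± 0.84 (adjusted p = 0.00659). Without KO_H2O 1 the count of higher matrix genes was 2, and without any of WT_DSS 2, WT_DSS 4 and KO_DSS 3 that of lower ones was 2. Adipocyte markers had 2 of 10 lower, Plin4 and Lipe. With GC correction neither was called (adjusted p = 0.0787 and 0.338), and 1 other member was lower. Markers of skeletal muscle, red cells and pancreas had 1 of 10 lower, the muscle enzyme Ckm (-2.94 ± 0.48, adjusted p = 0.0013). With GC correction 2 of those muscle, red cell and pancreas markers were higher and 1 lower, and without KO_H2O 2 the lower count was 2. The 5 tested squamous epithelium markers had log2 changes between -1.22 and 2.21, with adjusted p between 0.185 and 0.56 (limma). Immediate early and heat shock genes, which respond to handling, had 1 of 20 higher, Hsp90aa1, and 3 lower, Jund, Nr4a1 and Hspa1a (4 and 0 with GC correction). Jund, a subunit of AP-1, was instead higher with GC correction (log2 change 0.65, adjusted p = 0.0333). The lower count was 1 without any of KO_DSS 3, WT_H2O 2, KO_H2O 1 and KO_H2O 3 and 5 without KO_H2O 2, and the higher count was 2 without KO_DSS 2. Lists with no call in 1 direction gained at most 2 there when a single library was left out, 2 higher for fibroblasts without KO_H2O 2 and for dendritic and mast cells without KO_DSS 3.

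The remaining large or precise changes lay outside these lists. Abca13, a large lipid transporter, had 194 to 1996 normalized counts on DSS and 0 to 127 on H2O (6.94 ± 1.03, adjusted p = 0.000833, 0.0689 with voom weights). Fat2, an atypical cadherin, had 0 to 15.6 on DSS and 75.8 to 249.7 on H2O (-5.65 ± 0.77, adjusted p = 0.000603). Rtn4r, a receptor for axon growth inhibitors, had 0 to 17.3 on DSS and 19.0 to 234 on H2O (-5.19 ± 0.79, adjusted p = 0.000946). Sstr1, a somatostatin receptor, had 34.9 to 89.2 on DSS and 285 to 812 on H2O (-3.30 ± 0.26, adjusted p = 7.09e-05). The transcription factor Nkx3-2 changed by -4.43 ± 0.93 (adjusted p = 0.00463), and Pbld1, Odf3b and the phosphate transporter family member Slc17a2 by -4.51, -4.49 and -5.38. Slc17a2 was not called with voom weights (adjusted p = 0.0764). For these genes the fold is on the scale of log2(normalized count + 1), and its size depends on the added 1 where 1 arm is near 0.

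Called genes changed in the same direction in both genotypes, with 1 exception. All 3194 genes called higher had a positive change in WT libraries alone and in KO libraries alone, and of the 3610 called lower 3609 had a negative change in WT and 3610 in KO libraries, signs that pooling itself favours. The genotypes share no library, so a call in 1 can be followed in the other. Fitted in the 6 WT libraries alone, 494 genes were higher (2.12%) and 512 lower (2.2%) on DSS. Of these, 490 of 494 and 510 of 512 had the same sign in KO libraries, where 45.4% and 54.6% of all tested genes had that sign. Far fewer, 42 of the 494 (8.50%) and 19 of the 512 (3.71%), were also called the same way in KO libraries. Fitted in the 6 KO libraries alone, 71 genes were higher (0.305%) and 61 lower (0.262%). Of these, 69 of 71 and 60 of 61 had the same sign in WT libraries, where 49.0% and 50.9% of all tested genes had that sign. In WT libraries 42 of the 71 (59.2%) and 19 of the 61 (31.1%) were called the same way. Across the 23263 genes, which are not independent replicates, the changes in the genotypes correlated with a Pearson r of 0.684 and a Spearman rho of 0.677. The GC trend is part of both sets of changes.

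No gene passed the interaction of genotype and treatment in limma (0 of 23263, 0.0%), while 640 genes had an unadjusted p under 0.05 (2.75%), and none passed with voom weights. With the FPKM values, without KO_DSS 1 or without KO_DSS 2, 2 genes passed. The named genes with the smallest interaction p were mt-Td, Ets1 and Tnfrsf12a, each with an adjusted p of 1.0. Ets1 had a log2 change of -0.62 in KO and 1.16 in WT libraries, and Tnfrsf12a of 0.97 in KO and -1.28 in WT libraries. Neutrophil chemokines showed a median log2 change of 5.89 in KO and 0.18 in WT libraries over 5 genes, and B and plasma cell markers a median of -1.91 in KO and 1.32 in WT libraries over 19 genes. These medians are descriptions, and with 3 libraries in each group an absence of calls does not show that the genotypes responded alike.

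**Figure D5:**
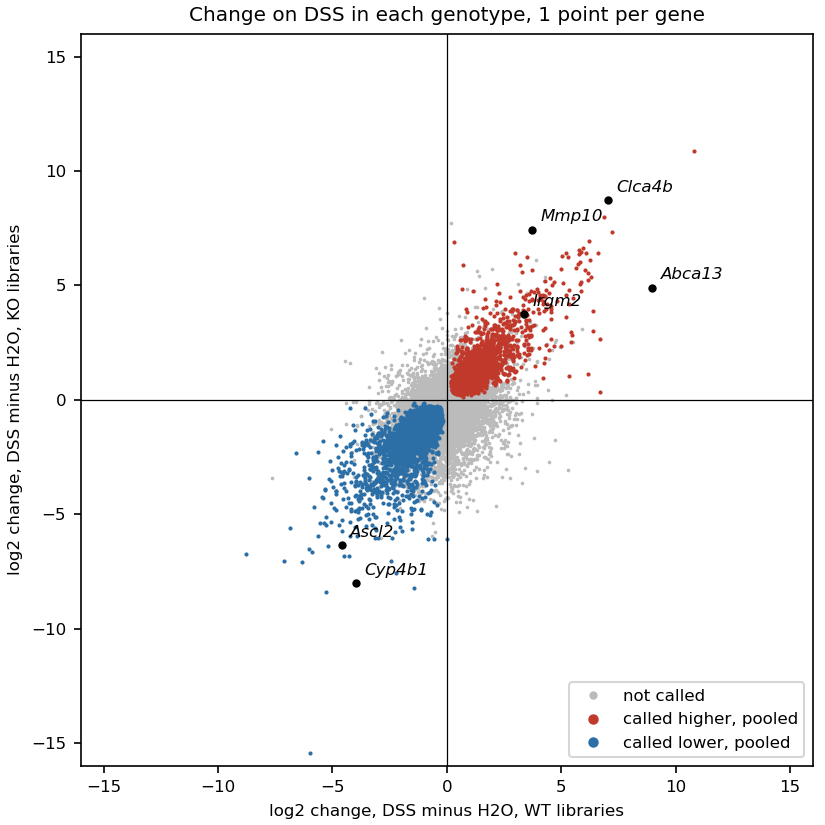
Log2 change on DSS within WT libraries (horizontal axis) and within KO libraries (vertical axis), 1 point per tested gene, red and blue where the pooled comparison called the gene higher or lower. Points lie along the diagonal with a Pearson r of 0.684, Abca13 being larger in WT and Mmp10 larger in KO libraries.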

How the data were processed

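Total RNA of mouse colon was sequenced on an Illumina HiSeq instrument, per the labels' protocols, and the submitters' processing notes list STAR, GRCm38 and mm10. No source used here states the read counter, its strand setting or the annotation. The authors deposited log2 normalized counts, which the values show to be log2(count divided by a library factor, plus 1), since 100% of them came out as whole multiples of 1 read at a tolerance of 0.01. A deposited table of log2 FPKM values (fragments per kilobase, scaled by the authors to library depth, plus 1) served as an alternative. A further table held 4 columns that match no sample label and were not used.

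Groups came from the genotype and treatment labels. The log2 scale was undone to give normalized counts. Genes averaging at least 10 over the 12 libraries were tested on log2(normalized count + 1) by limma 3.58.1 in R 4.3.3, using lmFit and then eBayes (trend = TRUE), with terms for genotype and treatment, on 9 residual and 3.85 prior degrees of freedom. The interaction used 8 residual degrees of freedom. P-values were adjusted by Benjamini-Hochberg over the 23263 tested genes, the error beside a log2 change is its SE, and Glul and Lyz2 were also compared by an exact permutation test over 400 arrangements. The fit was tested on simulated data. Depth was 14.7 M to 41.2 M reads per library, and intervals cover spread between libraries only. Coordinates came by gene identifier from GENCODE for GRCm38 (93.9% of tested genes), promoter sequences by symbol from RefSeq (GRCm38.p6).

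The comparison, the 40 gene lists (869 of 973 entries tested) and the motifs were chosen with earlier results of these data known. Named genes are Glul and Lyz2, the 10 largest changes each way among called genes whose arms do not overlap and whose higher arm averages at least 50, the 10 smallest p under the same conditions, from each list the called members ranked first by p (4 at most; where none was called, the first member), and the 3 smallest interaction p. Other called list members are named without values, and Ccl6, Ang4, Mertk and similar single exceptions were chosen after their values were seen. Gene copies with near-identical sequence, and overlapping genes, may share reads. Some list members are not reported here. Alternatives covered scaling, pseudocount, filter, FPKM, voom weights on recovered reads, sample weights, model terms, a replicate block, each library left out, GC correction (a lowess of each library's deviation from the gene mean on transcript GC content, subtracted) and both KO_H2O 2 and KO_DSS 3 left out, the last 2 chosen after seeing the data.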

Additional observations from a re-analysis of the deposited data

Results flagged for a closer look

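In each arm of 6 libraries, the highest or lowest library was compared with its nearest neighbour for the named genes, list levels and library measures. Genes were compared on the log2(normalized count + 1) scale. In 28 of 388 such checks the gap, as a share of the range of the arm, exceeded Dixon's critical value for 6 samples, where chance flags about 1 in 20 groups. KO_H2O 2 stood apart most often, in 8 checks, followed by WT_H2O 3 in 6, KO_DSS 2 in 5 and WT_DSS 4 in 4.

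On DSS, WT_DSS 4 had the highest level of Ascl2 at 11.53, Slc17a2 at 7.412 and Ugt2b36 at 9.882 normalized counts, where the other 5 DSS libraries had 0, and the lowest level of Atp12a at 61.77. KO_DSS 2 had the lowest levels of Guca2a at 247.3, Acaa2 at 384.5 and Bax at 91.04. KO_DSS 2 also had the highest list level of secretory chaperones at 1.138 and of immediate early and heat shock genes at 0.7216 log2 units above the H2O mean. KO_DSS 1 was highest for cytokine receptors at 0.8025 log2 units, and KO_DSS 3 for Egfl7 at 286.4 normalized counts.

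On H2O, KO_H2O 2 was highest for Abca13 at 127.1, Slfn1 at 10.55, Gbp7 at 637.1, H2-DMb1 at 441.4 and Cox8a at 6580, and lowest for the tuft cell genes Trpm5 at 208.3 and Pou2f3 at 19.51. Its list level of cytokine ligands was highest at 0.6356 log2 units. WT_H2O 3 was highest for Parp9 at 1560, Dtx3l at 2770, Acaa2 at 3357 and Oat at 4411, and for the list levels of xenobiotic metabolism at 0.8778 and fatty acid oxidation at 0.7992 log2 units. KO_H2O 3 was lowest for Cxcl1 at 0.0 and had the highest share of mitochondrial reads at 8.361%. KO_H2O 1 was lowest for Hdc at 0.0. The cause of these gaps was not tested.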

How the results depend on the processing

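Counts of called genes stayed within 1.5 times of 6804 under every alternative except GC correction, between 4864 without KO_H2O 1 and 8095 with sample weights (6378 with voom weights on recovered reads), and at 7237 with both KO_H2O 2 and KO_DSS 3 left out. GC correction, added after seeing the data, gave 3894 called genes, 2107 higher and 1787 lower, and reversed the log2 change of Il17rc (0.15), Nfkb2 (0.21) and Jund (0.65, adjusted p = 0.0333). It ended 19 of the 145 named calls, 5 higher and 14 lower. The interaction had 0 called genes (640 at an unadjusted p under 0.05), 2 with FPKM, and between 0.0 and 2.0 with each library left out (2 without KO_DSS 1 or KO_DSS 2). Of the 145 named calls 116 held in each of the 25 alternatives that gave them a value and 11 were lost without some library. The numbers of the labels were not taken to pair the samples in the main fit. Same-numbered libraries of different groups correlated between -0.184 and 0.238 in their deviations, against -0.265 to 0.273 for others. With 3 libraries in each group these values cannot exclude a pairing. With the replicate block 5593 genes were called, 2463 higher and 3130 lower, in a fit where WT_DSS 4 has a level of its own and so drops out. Depth limits values near 0, where 1 read stood for 1.57 normalized counts in KO_DSS 3 and for 0.527 in KO_H2O 2.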

Other observations

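Gene families taken by symbol, and chosen after their values were seen, are given as counts, beside 13.7% of all tested genes higher and 15.5% lower, or 9.64% and 8.18% with GC correction. Of 64 tested histone genes (symbols starting with Hist), 0 were higher and 39 lower on DSS in limma (60.9%), with a median transcript GC content of 57.8%, and 15 were lower with GC correction. Their reads may be shared among near-identical copies. Of 292 solute carriers 13 were higher and 102 lower, and 14 and 63 with GC correction. Of 38 RNA-binding motif genes (Rbm) 13 were higher and 1 lower, and 8 and 1 with GC correction, at a median GC content of 45.4%. Of 36 DEAD-box helicase genes (Ddx) 14 were higher and 5 lower, and 6 and 1 with GC correction. Of 21 C-type lectins (Clec) 8 were higher and 3 lower, and 5 and 1 with GC correction.

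Among gene types, 417 of 1413 tested genes without an entry in the annotation were higher on DSS and 48 lower, and 39 of 209 sense-intronic genes were higher and 4 lower. Genes without an entry had no GC value, and gene types were not counted with GC correction. Of 112 immunoglobulin variable segments 14 were lower on DSS (12.5%, beside 15.5% of all tested genes) and 0 higher (beside 13.7%). Their median log2 change was -1.86, beside -0.07 for all tested genes.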
